A study of Mus musculus with 16 samples.

Results

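Myeloid cells read antibody-coated and microbial or damaged material through a small set of surface receptors, and the 10 genes described here encode members of that set. They are the Fc gamma receptors Fcgr1, Fcgr2b, Fcgr3 and Fcgr4, the signalling adaptors Fcer1g and Tyrobp, the inhibitory receptor Pirb, the lipopolysaccharide co-receptor Cd14 and the Toll-like receptors Tlr2 and Tlr4. They were taken by gene symbol from a table of read counts for 22468 genes in the ventricles of neonatal mice, and all 10 passed the filter on low counts that left 13412 genes for testing. The samples formed 4 groups of 4. Wild-type mice (WT) had a sham operation or a myocardial infarction (MI) made by ligation, and mice with a germline knockout (KO) of Chrna7, the alpha7 nicotinic acetylcholine receptor subunit (Jax stock number 003232), had the same 2 operations. Each library was made from polyadenylated RNA of whole ventricle, with the tissue above and below the ligature, so infarcted, border and remote myocardium were read together. The labels used here give no age, sex, litter or time after surgery and do not say that each library came from a separate animal, so p-values measure the spread between these libraries, which may in part be technical.

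Fc gamma receptors bind the constant part of immunoglobulin G. Fcgr1, Fcgr3 and Fcgr4 are activating receptors that signal through the immunoreceptor tyrosine-based activation motif (ITAM) of their partner, the common gamma chain encoded by Fcer1g, while Tyrobp (DAP12) is the ITAM adaptor of Trem2 and related receptors. Fcgr2b and Pirb carry the opposite, inhibitory motif and recruit phosphatases. Tlr4 senses lipopolysaccharide with the help of Cd14, and Tlr2 senses bacterial lipoproteins; both also respond to molecules released by injured tissue. In the heart these genes are made mainly by macrophages, monocytes and neutrophils, whereas Tlr4 is also made by endothelial cells and cardiomyocytes and Fcgr2b also by B cells.

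Several of these genes are known targets of PU.1, the myeloid transcription factor encoded by Spi1, and most members were higher after infarction in the comparisons below, so their promoters were searched for the PU.1 core. The RefSeq promoter sequences (GRCm38.p6) used were those of 7 of the 10 members, Fcgr1, Fcgr2b, Fcgr3, Fcgr4, Fcer1g, Pirb and Tlr2. The promoters of Tyrobp, Cd14 and Tlr4 were not searched, so the counts of cores leave these members out. The core, GAGGAA or TTCCTC on the other strand, was found within 250 bases before the RefSeq start in 4 of the 7. Of all 32851 RefSeq promoters of that length, 23.3% held it. For Fcgr2b, Fcgr3 and Tlr2 the last 150 bases before this start lay inside the annotated gene, which begins further upstream. The core of the RUNX factors, TGTGGT or ACCACA, was found in 1 of the 7, Fcgr4, and in 14% of all promoters. The 4 promoters with the PU.1 core are printed 5′ to 3′ on the strand of the gene, with the core in capitals and with bases that lie in an annotated exon left out.
Fcgr1: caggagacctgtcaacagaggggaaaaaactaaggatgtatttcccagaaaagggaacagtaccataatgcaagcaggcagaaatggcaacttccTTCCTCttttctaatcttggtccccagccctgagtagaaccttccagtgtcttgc
Fcgr3: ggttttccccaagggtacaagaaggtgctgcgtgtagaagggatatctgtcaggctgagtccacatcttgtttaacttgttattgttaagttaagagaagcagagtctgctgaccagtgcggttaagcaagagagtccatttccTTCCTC
Fcgr4: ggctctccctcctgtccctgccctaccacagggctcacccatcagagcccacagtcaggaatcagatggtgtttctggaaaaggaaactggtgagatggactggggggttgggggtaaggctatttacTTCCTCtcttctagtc
Pirb: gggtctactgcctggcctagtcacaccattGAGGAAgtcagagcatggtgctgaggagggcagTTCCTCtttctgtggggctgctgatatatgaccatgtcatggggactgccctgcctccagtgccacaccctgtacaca
The windows are chr3:96293970-96294119 on the minus strand for Fcgr1, chr1:171059404-171059553 on the minus strand for Fcgr3, chr1:171018776-171018919 on the plus strand for Fcgr4 and chr7:3720392-3720532 on the minus strand for Pirb. The first base of the core lay 55 bases before the start in Fcgr1, 6 in Fcgr3 and 22 in Fcgr4. Pirb held it 3 times, at 185, 120 and 87 bases before the start, the first of these outside the printed stretch. A match describes these letters and shows no bound site.

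The libraries held between 10711442 and 17223580 reads assigned to genes, and levels are given as counts per 1000000 reads (CPM) of a library total scaled by the TMM method. The members were lowly expressed in whole ventricle, with 2 to 291 reads per gene and library, and 3 reads corresponded to 0.179 to 0.29 CPM. Chrna7 itself had 0 to 4 reads in every library and could not serve as a check of the genotype labels. The KO sham libraries stood apart on the first principal component of all genes, and 3 libraries (WT sham 2, WT MI 2 and KO MI 4) stood apart on the fourth and had the highest mitochondrial share among the libraries of their groups, 12.8% to 17.3%. Reads from Y-linked genes were near absent, at 1.73 to 2.74 CPM summed, in WT sham 1, KO sham 2 and KO MI 1. The tissue label was met by its defining markers, with 42195 to 82517 CPM summed over 7 cardiomyocyte genes in each library. Reads from 8 lung epithelium genes were found as well. They summed to 3.20 to 97.3 CPM in WT sham and 3.94 to 174.7 CPM in WT MI libraries. In the knockout the sums were 53.2 to 63.9 CPM after sham and 46.7 to 343.5 CPM after infarction. WT sham 2 and WT MI 2 had the lowest sums. The part of lung tissue in the receptor levels was not tested.

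Compared per kilobase of annotated exon, the adaptors were the most abundant of the 10 genes in every group. In WT sham ventricles Tyrobp stood at 9.66 ± 1.57 CPM per kb and Fcer1g at 5.15 ± 0.86 (SD, n = 4), and their ranges did not overlap. Fcgr3 followed at 2.59 ± 0.70 CPM per kb and Cd14 at 2.10 ± 0.22, and these neighbours overlapped. Tlr4 stood below them at 1.55 ± 0.13 CPM per kb, and Tlr2 at 0.90 ± 0.09 overlapped Fcgr1 at 0.84 ± 0.10. The lowest levels per kilobase were those of Fcgr4 at 0.49 ± 0.30, Pirb at 0.28 ± 0.07 and Fcgr2b at 0.26 ± 0.08, which overlapped each other. Thus both inhibitory receptors were among the lowest 3 in uninjured wild-type tissue, with the reservation that the exon length of Fcgr2b, 5.79 kb, spans all its annotated isoforms. In KO MI ventricles the order began with the same 4 genes, Tyrobp at 21.9 ± 7.8, Fcer1g at 11.5 ± 2.2, Fcgr3 at 6.52 ± 2.09 and Cd14 at 5.10 ± 0.83 CPM per kb, and the other 6 lay between 1.32 and 1.94 CPM per kb with overlapping ranges.

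**Figure D1:**
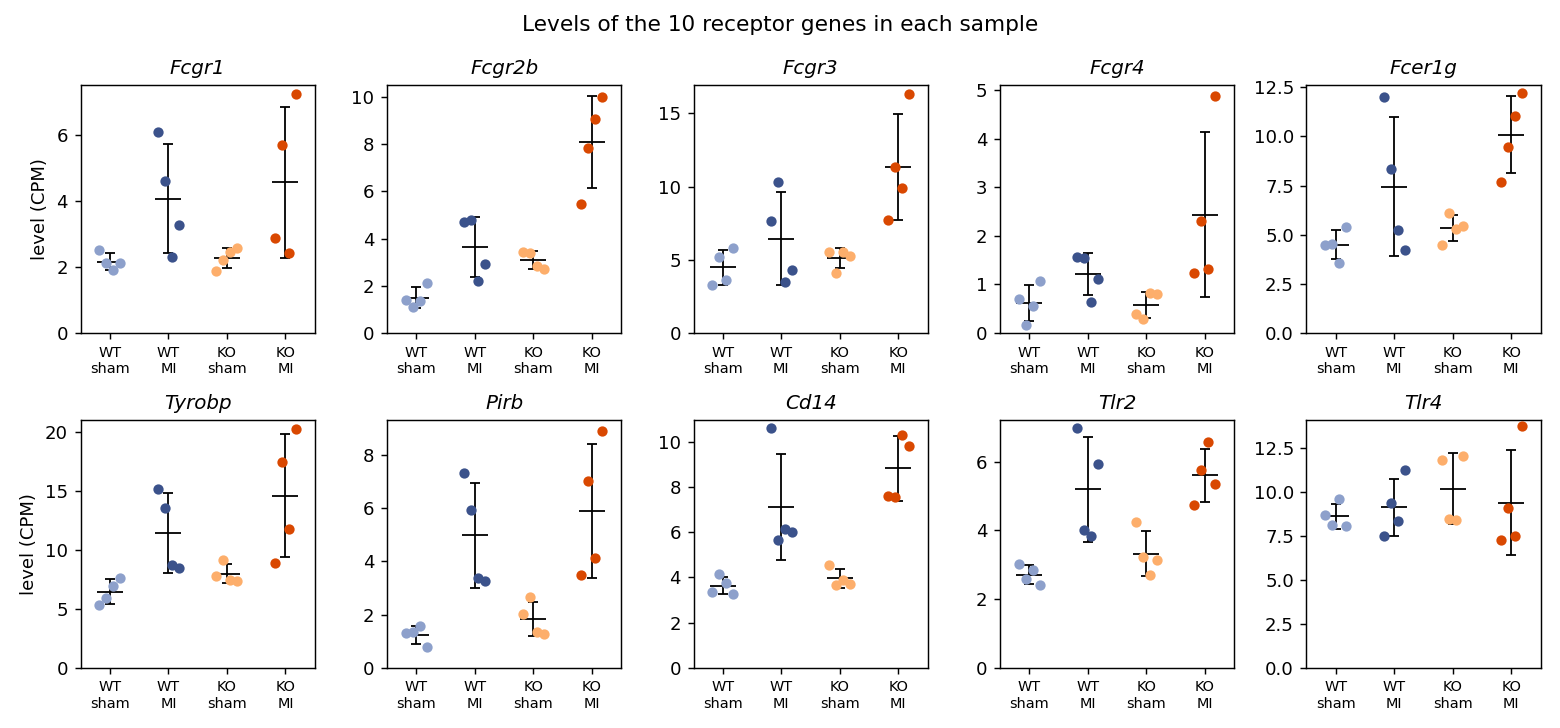
Level of each receptor gene in each of the 16 libraries, in CPM on a linear axis that starts at 0 and differs between panels; points are libraries in replicate order, and black marks give the mean and SD of 4. Pirb and Cd14 are higher in all 8 infarcted libraries than in all 8 sham libraries, Fcgr2b is higher in the knockout after each surgery, and Tlr4 shows overlapping levels in the 4 groups.

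The first comparison asked how the receptors differed after infarction in wild-type mice. Pirb, Fcgr2b, Cd14 and Tlr2 rose, about 4.0-fold for Pirb and 1.90-fold to 2.50-fold for the other 3, so that 4 of 10 members were called higher by edgeR's quasi-likelihood test at a Benjamini-Hochberg adjusted p under 0.05. Of all genes tested, 1.32% were called higher in this comparison. All 10 members had a positive estimate, with a median log2 fold change of 0.92 beside -0.01 for all genes. For 5 members every WT MI library lay above every WT sham library, as for 4.5% of all genes. In bulk tissue, more cells of a type and more RNA per cell cannot be told apart, here or in any comparison below.

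Pirb, the paired immunoglobulin-like receptor that binds MHC class I and restrains myeloid activation, had the largest change in wild type. Its levels were 1.30, 1.33, 1.55 and 0.77 CPM in WT sham libraries and 7.32, 5.91, 3.39 and 3.26 CPM in WT MI libraries. Every infarcted library lay well above the highest sham library, and the groups did not overlap. The log2 fold change was 2.0 ± 0.36 (SE), with an adjusted p of 0.00629 from edgeR. Pirb is the member most exposed to near-identical relatives, since 34% of its 50-base stretches also occur in transcripts of Lilra6, Gm15448, Pira2 or Gm14548. Over all 16 libraries Lilra6 had 44 reads, Pira2 had 28 and Gm15448 had 17, against 8 to 128 per library for Pirb, and whether reads were assigned between these genes was not tested.

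Fcgr2b, the only Fc gamma receptor that inhibits, stood at 1.38, 1.09, 1.37 and 2.13 CPM in WT sham libraries. After infarction its levels in wild type were 4.69, 4.78, 2.2 and 2.92 CPM. The groups did not overlap, though WT MI 3 exceeded the highest sham library by little. The log2 fold change was 1.32 ± 0.28 (SE) with an adjusted p of 0.0155 in edgeR. Without WT sham 2, WT MI 2 and KO MI 4, the libraries apart on the fourth component, it was 1.03 with an adjusted p of 0.0561.

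Among the pattern recognition receptors, Cd14 levels were 3.37, 4.13, 3.75 and 3.29 CPM in WT sham and 10.6, 5.67, 6.13 and 6.01 CPM in WT MI libraries. Tlr2 stood at 3.03, 2.57, 2.83 and 2.42 CPM in WT sham and at 6.99, 4.0, 3.84 and 5.92 CPM in WT MI libraries. For both genes the groups did not overlap, and WT MI 1 was the highest library. The log2 fold changes from edgeR were 0.96 ± 0.20 (SE) for Cd14, with an adjusted p of 0.0138, and 0.93 ± 0.21 for Tlr2, with an adjusted p of 0.0234. Tlr4, the partner of Cd14, behaved differently in these libraries, with 8.65, 8.11, 9.59 and 8.02 CPM after sham and 7.49, 9.37, 8.33 and 11.2 CPM after infarction. Its groups overlapped and its log2 fold change was 0.09, with a 95% interval from -0.33 to 0.50.

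The activating Fc receptors and the adaptors were not called in wild type. Tyrobp came nearest, at 5.27, 5.92, 6.94 and 7.64 CPM after sham and 15.1, 13.5, 8.70 and 8.41 CPM after infarction, without overlap, for a log2 fold change of 0.84 ± 0.24 (SE) and an adjusted p of 0.0741 in edgeR. Fcer1g ranged from 3.56 to 5.41 CPM after sham and from 4.21 to 12.01 CPM after infarction, a wide spread in which WT MI 4 lay among the sham libraries. Fcgr1, the high-affinity receptor, had a log2 fold change of 0.91 ± 0.33, Fcgr4 of 1.04 ± 0.54 and Fcgr3 of 0.55 ± 0.30, with adjusted p of 0.174, 0.381 and 0.411 in edgeR. Fcgr4 rested on 2 to 26 reads in the libraries of this comparison.

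The count of wild-type calls depended on single libraries. Without WT MI 1, which had the highest summed level of the members in its group, Pirb alone was called. Without WT sham 2 or without WT sham 3 only Pirb and Cd14 were called. The call of Tlr2 was lost in 5 of the 8 fits that left out 1 library, with adjusted p up to 0.122 in edgeR. The lowest and highest counts over these 8 fits were 1 and 5, and Pirb was called in all 8.

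The same comparison in Chrna7 knockout mice gave calls for 9 of the 10 members, all higher after infarction, where 8.54% of all genes tested were called higher. Only Tlr4 was not called. The median log2 fold change of the members was 1.07 beside 0.01 for all genes. For 7 members every KO MI library lay above every KO sham library, as for 11.4% of all genes. The 2 sham groups and the 2 MI groups are separate libraries, so the knockout response was measured in other libraries than the one in wild type. Both were fitted with 1 shared estimate of spread. The labels do not say whether libraries of the 2 genotypes shared a factor such as litter.

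The activating receptors passed the test here. Fcgr4, which binds IgG2a and IgG2b complexes, stood at 0.39, 0.29, 0.82 and 0.80 CPM in KO sham and at 1.23, 2.32, 1.31 and 4.87 CPM in KO MI libraries, without overlap. KO MI 4 was by far the highest of these. The log2 fold change was 2.07 ± 0.49 (SE), with an adjusted p of 0.00824 in edgeR, and without those same 3 libraries, KO MI 4 among them, it was 1.5. Fcgr3 had 5.53, 4.12, 5.53 and 5.29 CPM in KO sham and 7.74, 11.4, 9.91 and 16.3 CPM in KO MI libraries, also without overlap, a log2 fold change of 1.14 ± 0.28 and an adjusted p of 0.0111. Fcgr1 overlapped between groups, at 1.89 to 2.57 CPM after sham and 2.43 to 7.24 CPM after infarction. Its log2 fold change of 1.0 ± 0.32 had an adjusted p of 0.0365 in edgeR, a call that was lost in 6 of the 8 fits that left out 1 library.

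Both adaptors rose in the knockout. Fcer1g levels were 4.49, 6.10, 5.31 and 5.45 CPM after sham and 7.67, 9.47, 11.02 and 12.2 CPM after infarction, with no overlap and a log2 fold change of 0.92 ± 0.24 (SE, edgeR adjusted p = 0.0141). Tyrobp levels were 7.81, 9.12, 7.47 and 7.38 CPM after sham and 8.91, 17.4, 11.7 and 20.3 CPM after infarction. KO MI 1 lay below the highest sham library, and the log2 fold change was 0.87 ± 0.23 (edgeR adjusted p = 0.0140). 

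The inhibitory receptors also rose in the knockout. Fcgr2b went from 3.45, 3.38, 2.84 and 2.73 CPM in KO sham to 5.48, 7.86, 9.05 and 10.02 CPM in KO MI libraries, all 4 above every sham library. Its log2 fold change of 1.38 ± 0.23 (SE) had an adjusted p of 0.000861 in edgeR. Pirb went from 2.02, 2.65, 1.35 and 1.28 CPM to 3.49, 7.02, 4.13 and 8.91 CPM, again with no overlap, a log2 fold change of 1.68 ± 0.33 and an adjusted p of 0.00286.

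Of the pattern recognition receptors, Cd14 had the smallest p in the knockout. Its levels were 4.56, 3.68, 3.89 and 3.69 CPM after sham and 7.60, 7.58, 10.3 and 9.82 CPM after infarction, and the log2 fold change was 1.15 ± 0.19 (SE, edgeR adjusted p = 0.000708). Tlr2 levels were 4.23, 3.23, 2.69 and 3.13 CPM after sham and 4.73, 5.75, 6.56 and 5.36 CPM after infarction, with a log2 fold change of 0.75 ± 0.20 and an adjusted p of 0.0153. Neither gene's groups overlapped. Tlr4 levels were 11.8, 8.45, 8.37 and 12.03 CPM after sham and 7.26, 9.05, 7.48 and 13.7 CPM after infarction, which overlapped, and the log2 fold change was -0.12 with a 95% interval from -0.52 to 0.29.

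**Figure D2:**
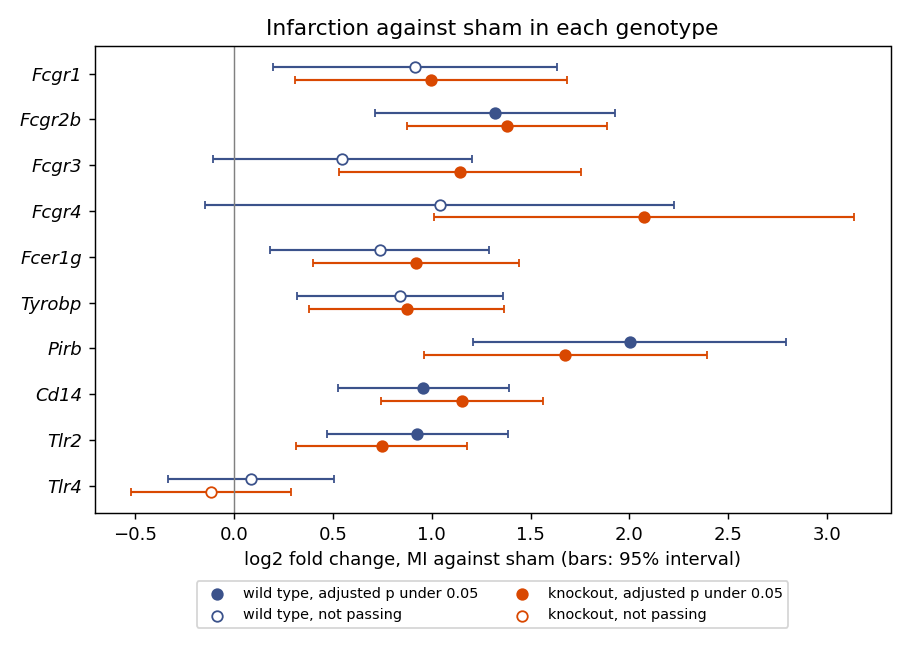
Log2 fold change of each receptor gene, infarction against sham, in wild-type (blue) and knockout (orange) ventricles; bars are 95% intervals and filled points passed an adjusted p under 0.05. In the knockout 9 genes pass and in wild type 4, the intervals of the same gene overlap between genotypes, and those of Tlr4 span 0 in both.

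Whether the response differed between genotypes was tested by the interaction term. No member passed, where 2.74% of all genes did, and no member reached an unadjusted p under 0.05, where 18.1% of all genes did. The estimates of the difference, knockout response minus wild-type response on the log2 scale, were largest for Fcgr4 at 1.03 ± 0.76 (SE), with a 95% interval from -0.61 to 2.68, and for Fcgr3 at 0.59 ± 0.41, with an interval from -0.30 to 1.49. For Fcgr2b the difference was 0.06 ± 0.39, from -0.78 to 0.90, and for Pirb -0.33 ± 0.50, from -1.41 to 0.76. The larger number of calls in the knockout is therefore not a tested difference in response, and the intervals allow differences of severalfold for Fcgr4. DESeq2 and limma called no member in this test either.

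Averaged over the genotypes, a contrast chosen after the data had been seen, infarction was accompanied by higher levels of 9 of the 10 members, where 6.89% of all genes were called higher. Pirb was 3.58-fold and Cd14 2.08-fold higher, and for these 2 genes all 8 infarcted libraries lay above all 8 sham libraries. Of all genes, 0.47% likewise did not overlap and were higher after infarction. The log2 fold change was 1.84 ± 0.24 (SE) for Pirb, 1.06 ± 0.14 for Cd14, 1.56 ± 0.37 for Fcgr4 and 1.35 ± 0.18 for Fcgr2b, with edgeR adjusted p of 0.000164, 0.000109, 0.00899 and 0.00015. Fcgr1, Fcgr3, Fcer1g, Tyrobp and Tlr2 had log2 fold changes of 0.83 to 0.96 with adjusted p of 0.0117 or less. Tlr4 had a log2 fold change of -0.02, with a 95% interval from -0.31 to 0.28. The same number of members, 9, was called in each of the 16 fits that left out 1 library.

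The genotypes were compared within each surgery. After sham, Fcgr2b was 2.10-fold higher in the knockout, and it was the only member called, where 7.6% of all genes were called higher. The levels given above, 1.09 to 2.13 CPM in WT sham and 2.73 to 3.45 CPM in KO sham libraries, did not overlap. Of all genes, 14% likewise had every KO sham library above every WT sham library. Only 1 member had an unadjusted p under 0.05 in edgeR, where 31.6% of all genes did, and Fcgr2b ranked 1000 by p. The log2 fold change of Fcgr2b was 1.07 ± 0.28 (SE), with an adjusted p of 0.0152 in edgeR. Without WT sham 2 the adjusted p was 0.0567 and no member was called. The other 9 members differed by -0.07 to 0.56 on the log2 scale, with overlapping groups and adjusted p of 0.357 or more. The 95% interval for Pirb, the other inhibitory receptor, ran from -0.32 to 1.43.

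After infarction no member was called between genotypes by edgeR, where 0.0149% of all genes, 2 in number, were called in either direction. Fcgr2b was again higher in the knockout, at 5.48 to 10.02 CPM against 2.2 to 4.78 CPM, with no overlap. In 1.09% of all genes every KO MI library likewise lay above every WT MI library. Fcgr2b had a log2 fold change of 1.13 ± 0.23 (SE), from 0.63 to 1.63. It ranked 6 by p among the 13412 genes, with an adjusted p of 0.166, and DESeq2 gave it an adjusted p of 0.0124, the only member that tool called; limma called none. All 10 estimates were positive, with a median of 0.33 beside 0.00 for all genes, and 3 members had an unadjusted p under 0.05, where 4.76% of all genes did. The other 2 were Fcgr3, with a log2 fold change of 0.78 ± 0.28 and an adjusted p of 0.897, and Fcgr4, with 0.96 ± 0.44 and 0.976 in edgeR.

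Averaged over the surgeries, also a contrast chosen after the data had been seen, Fcgr2b was 2.14-fold higher in the knockout and the only member called, where 2.57% of all genes were called higher. The log2 fold change was 1.10 ± 0.18 (SE), with an adjusted p of 0.00145 in edgeR, and 1 member was called in each of the 16 fits that left out 1 library. Fcgr3, which lies in the same Fc receptor cluster on chromosome 1, had a log2 fold change of 0.49 ± 0.21 and an adjusted p of 0.164. Both genes share sequence, with 4.38% of the 50-base stretches of Fcgr2b and 9.58% of those of Fcgr3 found in other genes' transcripts, in each case including the other gene. Fcgr2b also overlaps an annotated antisense transcript, Gm38204, and reads from the gene and that transcript cannot be told apart here because the strand setting of the counting is not given in the sources used here. The sham and infarcted groups that enter these genotype differences are the same libraries that gave the responses above.

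**Figure D3:**
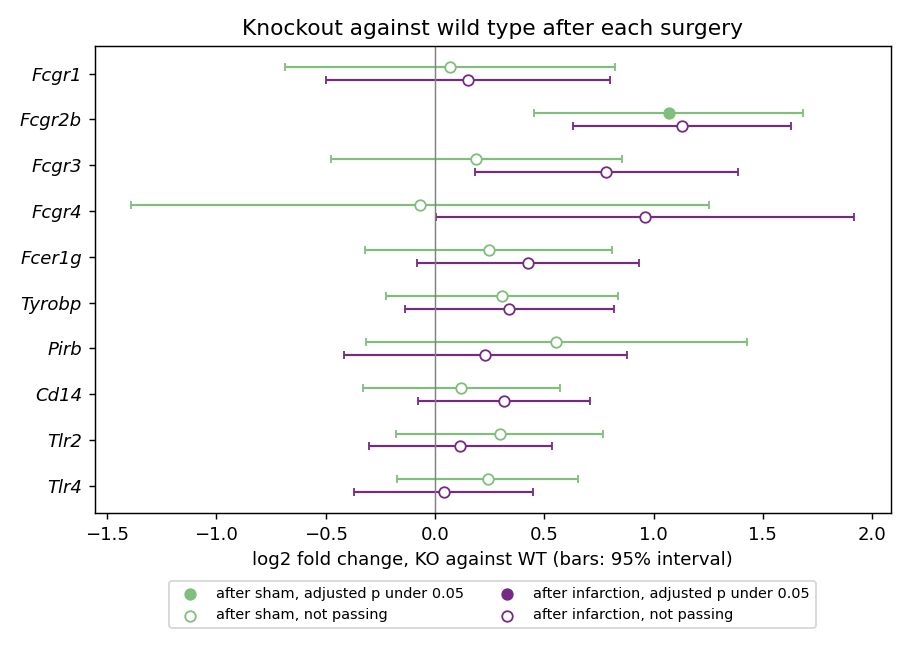
Log2 fold change of each receptor gene, knockout against wild type, after sham (green) and after infarction (purple); bars are 95% intervals and filled points passed an adjusted p under 0.05. Fcgr2b after sham is the only filled point, and its interval lies above 0 after both surgeries, as do those of Fcgr3 and Fcgr4 after infarction.

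Most markers of macrophages, monocytes and neutrophils moved in the same direction as the members. In each genotype 13 of 15 macrophage markers, 7 of 7 monocyte markers and 8 of 8 neutrophil markers tested had positive estimates after infarction. Of 4 mast cell markers tested, 0 were positive in wild type and 3 in the knockout. Of 2 dendritic cell markers tested, 1 was positive in wild type and 0 in the knockout. In wild type the summed level of 15 macrophage markers was 165.8 to 186.3 CPM after sham and 225.9 to 299.5 CPM after infarction, and in the knockout it was 201.4 to 217.6 and 263.8 to 445.4 CPM. None of the 15 was at 0 throughout a group. In wild type 4 of the 15 rose after infarction, C1qa, C1qb, C1qc and Adgre1 (F4/80), and in the knockout 7 rose, among them the cathepsin gene Ctss with a log2 fold change of 1.85 ± 0.28 (SE). The 7 monocyte markers summed to 3.90 to 7.64 CPM after sham and 8.88 to 21.6 CPM after infarction in wild type, and to 4.95 to 9.63 and 17.8 to 42.8 CPM in the knockout, where 4 of 7 rose. The 12 neutrophil markers summed to 9.60 to 14.2 and 15.5 to 107.9 CPM in wild type and to 9.11 to 16.1 and 29.5 to 117.7 CPM in the knockout, where 6 of 8 tested rose. In wild type the smallest adjusted p from edgeR was 0.0534, for Ccr2, among the monocyte markers and 0.0524, for Csf3r, among the neutrophil markers. Of the other cell type lists, 5 of 7 erythroid markers fell in wild type, while in the knockout 3 of 7 erythroid and 2 of 4 platelet markers rose and 3 of 7 cardiomyocyte markers fell. KO MI 4 stood apart in several of these sums at once. It had the highest sum of lung epithelium markers, 343.5 CPM against 46.7 to 64.4 CPM in the rest of its group. Its sum of cardiomyocyte markers was the lowest, 42195 against 65046 to 70536 CPM. Its sum of neutrophil markers was the highest, 117.7 against 29.5 to 36.0 CPM, as was its sum of macrophage markers. The same library had the highest sum of the 10 members, 108.7 CPM, and the highest level of every member except Cd14 and Tlr2. Without it 8 members were called in the knockout, Fcgr1 being lost, and the log2 fold changes were 1.49 for Fcgr4, 0.91 for Fcgr3, 0.67 for Tyrobp and 1.40 for Pirb. The part of these cells in the receptor levels was not tested.

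Set against the summed macrophage markers, the members did not all follow the same course. In wild type Tyrobp made up 3.62% ± 0.64 of that sum after sham and 4.26% ± 0.65 after infarction, and in the knockout 3.75% ± 0.31 and 4.04% ± 0.81 (SD, n = 4), so all 4 groups overlapped. Pirb made up 0.415% to 0.937% after sham and 1.44% to 2.44% after infarction in wild type, without overlap, and 0.636% to 1.22% against 1.17% to 2.0% in the knockout, which overlapped. Fcgr2b made up 0.615% to 1.14% in wild type and 1.34% to 1.59% in the knockout after sham, and 0.943% to 1.60% and 2.08% to 2.57% after infarction. The genotypes thus did not overlap for Fcgr2b after either surgery on this scale. In the knockout Fcgr3 went from 1.90% to 2.63% after sham to 2.81% to 3.66%, and Cd14 from 1.69% to 2.09% to 2.14% to 2.93%, without overlap. Both overlapped in wild type. Tlr4 went the other way, from 3.89% to 5.97% after sham to 2.12% to 3.08% after infarction in the knockout. In wild type it overlapped, at 4.31% to 5.79% and 2.50% to 4.98%. The CPM of Tlr4 itself overlapped between surgeries in each genotype, whereas the marker sum did not. These ratios are descriptions and were not tested.

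**Figure D4:**
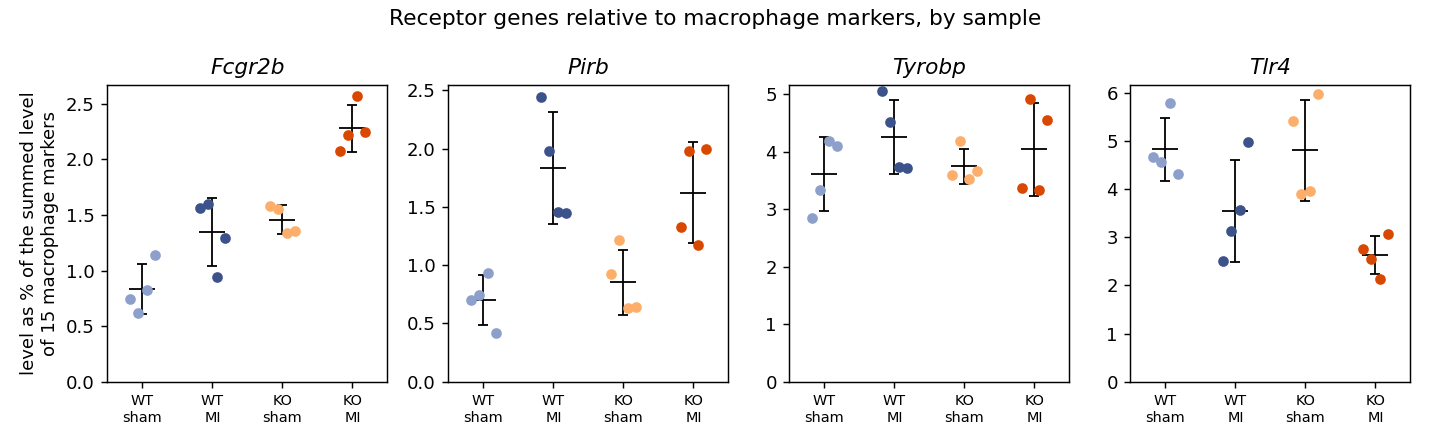
Level of 4 receptor genes as a percentage of the summed level of 15 macrophage markers in the same library, by group; points are libraries in replicate order, and black marks give the mean and SD of 4. Tyrobp overlaps in the 4 groups, Pirb is higher in infarcted wild type, Fcgr2b is higher in the knockout after each surgery, and Tlr4 is lower in infarcted knockout libraries than in knockout sham libraries.

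Beside the genotype difference of Fcgr2b, other cell type markers also differed. In KO sham against WT sham libraries Cx3cr1 and Mrc1, markers of resident macrophages, were higher, by 0.97 ± 0.21 and 0.43 ± 0.12 on the log2 scale (SE), and Lyve1 was lower, by -0.73 ± 0.24. The summed macrophage markers did not overlap between these groups, at 201.4 to 217.6 CPM in the knockout and 165.8 to 186.3 CPM in wild type. After infarction all 15 had positive estimates, with a median log2 fold change of 0.35. Averaged over the surgeries, the contrast in which Fcgr2b was called at 1.10, 5 of the 15 were higher in the knockout and none lower, where 2.57% of all genes were called higher. They were Adgre1 at 0.64 ± 0.13, Laptm5, Cx3cr1, Mrc1 and Csf1r. The 5 B cell markers summed to 5.21 to 7.32 CPM in KO sham and 2.65 to 4.74 CPM in WT sham libraries, without overlap. After infarction they summed to 3.06 to 5.64 CPM in the knockout and 2.57 to 7.51 CPM in wild type, which overlapped. All 7 erythroid and all 3 atrial markers were lower in KO sham, as were 2 of 4 mast cell markers tested, and Tie1 among 5 endothelial markers and Zbtb46 among 2 dendritic cell markers were higher. The part of these differences in the level of Fcgr2b was not tested.

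The genes that carry the receptors' signals were read from lists. Of 12 ITAM kinases and adaptors tested, Vav1, an exchange factor, rose in wild type after infarction with a log2 fold change of 1.04 ± 0.20 (SE). In the knockout Card9 and Plcg2 were among those that rose, by 0.96 ± 0.22 and 0.51 ± 0.15. Plcg2 averaged 24.3 CPM in KO sham and 34.6 CPM in KO MI, beside 34.1 CPM in WT sham and 36.9 CPM in WT MI. Card9 averaged 1.72 CPM in KO sham and 3.37 CPM in KO MI, beside 2.26 CPM in WT sham and 3.39 CPM in WT MI. All 12 had positive estimates in each genotype, with medians of 0.49 and 0.62. Of 8 inhibitory phosphatases and adaptors, Dok3, which damps ITAM signalling, rose in both genotypes, by 1.29 ± 0.24 and 0.77 ± 0.23. Dok2 and Csk, the kinase that restrains Src kinases, rose in the knockout as well. The phosphatase Ptpn6 (SHP-1), which docks on the inhibitory motif, had a log2 fold change of 0.51 ± 0.18 in wild type and 0.45 ± 0.17 in the knockout, with adjusted p of 0.159 and 0.078 in edgeR.

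Other receptors of the same kinds were measured. Of 9 other activating myeloid receptors tested, 3 rose in wild type, Fcrls, Clec4d and Clec4n, and 7 in the knockout, led by Trem2, the partner of Tyrobp, at 1.81 ± 0.24 on the log2 scale (SE), Clec4d at 2.79 ± 0.52 and Clec7a (dectin-1) at 2.06 ± 0.42. Of 14 other inhibitory receptors tested, Sirpa and Lair1 rose in wild type, and 6 rose and 1 fell in the knockout. Clec12a rose there by 1.75 ± 0.37 and Cd72 by 1.22 ± 0.28, and Ceacam1 was the gene that fell. Between the genotypes after sham, Ceacam1 was the only receptor of either list called, at 0.87 ± 0.14. Averaged over the surgeries Clec7a, at 1.25 ± 0.36 with an adjusted p of 0.0452 in edgeR, and Ceacam1 were higher in the knockout.

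Other genes of the Toll-like pathway were counted in the same way. Of 8 other Toll-like receptors tested, Tlr1 had the smallest p in wild type, with a log2 fold change of 1.41 ± 0.47 (SE) and an adjusted p of 0.132 in edgeR, and Tlr13, a sensor of bacterial ribosomal RNA, rose in the knockout by 1.2 ± 0.33. Of 8 cofactors Unc93b1, the chaperone of endosomal Toll-like receptors, rose in wild type and Ly86 (MD-1) in the knockout. Ly96 (MD-2), the lipopolysaccharide-binding partner of Tlr4, had a log2 fold change of 0.57 ± 0.29 in the knockout with an adjusted p of 0.179 in edgeR. Of 21 adaptors and kinases, Irak3 had the smallest p in wild type, with an adjusted p of 0.0767 in edgeR. In the knockout Irak1 and Tab1 were lower, by -0.26 ± 0.07 and -0.29 ± 0.09, where 1075 of all 13412 genes were called lower. The summed level of this list was 538.2 to 561.1 CPM in KO sham and 504.9 to 524.0 CPM in KO MI libraries. It was 505.8 to 520.3 CPM in WT sham and 487.0 to 524.9 CPM in WT MI libraries. Of 11 target genes tested Il1b rose in both genotypes, by 2.70 ± 0.60 and 2.04 ± 0.66, and Ccl2 in the knockout by 1.34 ± 0.21.

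The genes whose pattern over the 16 libraries was closest to each member were mostly leukocyte genes. Likeness was measured as the root mean square difference of log2 CPM after each gene was centred on its mean, for the 8 members that varied by an SD over 0.5, with the libraries and their depth shared by all genes. For Tyrobp the nearest included Coro1a, Spi1, Fyb and C1qa, at 0.194 to 0.211. For Fcer1g they were Coro1a, Rac2, C1qa, Cd68 and C1qc, at 0.216 to 0.238, and for Cd14 they were C1qa, Alox5ap, Spi1, Cd53 and C1qb, at 0.228 to 0.267. Both adaptors and Cd14 thus had the macrophage gene C1qa among their 5 nearest. The nearest to Fcgr1 included Fyb, Coro1a, Pld4 and Slfn2, at 0.246 to 0.293, and Fcgr3 was nearest to Cd300c2, Cd300a, Adgre1, C1qa and Capg, at 0.292 to 0.347. Fcgr2b was nearest to Itgb2, the beta2 integrin chain, at 0.271, followed by C3ar1, Lyz2, Dock2 and Adgre1 at 0.358 to 0.432. For Pirb the nearest were Lyz2, Ctss, Ms4a7, Clec4n and Emb, at 0.385 to 0.439, and for Fcgr4 they were Lyz2, Slc11a1, Ms4a6d, Cd52 and Hp, at 0.465 to 0.530. Spi1, which encodes PU.1, had a level of 5.37 ± 0.85 CPM in sham-operated and 8.99 ± 2.39 CPM in infarcted wild type, and of 6.07 ± 0.26 and 10.1 ± 2.4 CPM in the knockout (SD, n = 4). Its log2 fold change after infarction was 0.75 ± 0.19 (SE) in wild type and 0.73 ± 0.18 in the knockout, with edgeR adjusted p of 0.0423 and 0.0109.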

How the data were processed

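Neonatal mouse ventricle RNA-seq libraries, 16 in all and 4 per group, were analysed from the table of counts per gene deposited by the authors. Per the submitters' processing notes, the tools were DESeq2, HTSeq 0.13.5, HISAT2 2.2.1, FastQC, cutadapt 3.4 and bcl2fastq 2.17, with the GRCm39 build; the annotation release and strand setting are not given in the sources used here. The deposited counts are raw, and the 5 summary lines that name no gene were left out of totals and tests (reads in no feature were 23.7% to 28.2%). Symbols, exon lengths and positions came from GENCODE vM21 (GRCm38) by Ensembl identifier, with names for 22362 of 22468 genes.

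Counts were tested with edgeR 4.0.16 in R 4.3.3: filterByExpr, TMM scaling, 1 robust quasi-likelihood fit of all 16 libraries with a mean per group (12 residual degrees of freedom, used for the 95% intervals), two-sided tests, and Benjamini-Hochberg adjustment over 13412 genes with a threshold of 0.05. Standard errors are the log2 fold change divided by the square root of F. Alternatives were DESeq2 1.42.0, limma 3.58.1 (voom with sample quality weights), other scalings and filters, thinning, a replicate block, Y-linked expression as a covariate and leaving out each library in turn. No libraries were duplicates by a chi-square comparison of counts within groups. The members, the lists and the tests were chosen with earlier results of these data known. Named genes were all members, the genes of each list with the smallest p, and the 5 genes nearest to each member that varied by an SD over 0.5 and had a mean of at least 2 CPM. Some genes that this rule picks are not reported here.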

Additional observations from a re-analysis of the deposited data

Results flagged for a closer look

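Each member was examined in each group of 4 libraries for a library far from the other 3, by the gap to the nearest library divided by the group's range (Dixon's test at its 95% limit). This marked 2 of 40 groups, and chance alone marks about 1 in 20. Cd14 in WT MI 1 stood at 10.6 CPM, with the other 3 libraries of the group at 5.67 to 6.13 CPM and a gap of 0.906 of the range. Without that library the wild-type log2 fold change of Cd14 was 0.69 with an adjusted p of 0.0625 in edgeR. Fcgr3 in KO sham 2 stood at 4.12 CPM, with the others at 5.29 to 5.53 CPM and a gap of 0.831.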

How the results depend on the processing

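Over 1588 values of single members under alternatives, 1558 kept their direction where called and their side of the threshold, 25 lost a call, 5 gained one and none reversed. Most of these values belong to results not called in the main fit, which kept their side by staying uncalled. The 1558 therefore do not measure how stable the calls were. Of the 25 lost calls, 20 were lost by leaving out 1 library. Members called ranged, over fits without 1 library, from 1 to 5 for infarction in wild type, 7 to 9 in the knockout and 0 to 1 for knockout against wild type after sham; they were 0 throughout after infarction and for the interaction, and 9 and 1 throughout for the 2 averaged contrasts. Other settings gave 3 to 5 in wild type and 6 to 9 in the knockout, the 6 coming from the filter at a mean of 50 counts, which tests fewer members. DESeq2 called 1 member, Fcgr2b, between the infarcted groups (adjusted p 0.0124), and limma voom called 2 for the genotype difference averaged over surgeries, adding Fcgr3 at 0.56 (adjusted p 0.0414); the cause was not tested. Fcgr2b in wild type was 1.19 with limma voom (adjusted p 0.0505), Tyrobp in wild type passed with DESeq2 (adjusted p 0.0193), and Tlr2 in wild type did not pass when only its groups were fitted (adjusted p 0.0626). Fcgr1 in the knockout was 0.53 with limma voom (adjusted p 0.129) and 0.69 without the 3 libraries apart on the fourth component (adjusted p 0.106), a setting chosen after seeing the data. Calls over all genes moved more: from 302 to between 185 and 558 for wild type, from 2220 to between 1972 and 4811 for the knockout, from 2057 to between 1848 and 3905 after sham, from 2 to between 1 and 11 after infarction, from 368 to between 332 and 1509 for the interaction, from 1811 to between 1527 and 3280 for the averaged response and from 735 to between 582 and 1275 for the averaged genotype difference. Replicate numbers are shared by the groups, and libraries of the same number correlated at -0.0968 to 0.475, not every pair above 0.1. The value of 0.475 was that of WT sham 2 with WT MI 2, which stood together on the fourth principal component. Whether libraries of the same number share a factor cannot be settled by these correlations and was not tested. With the replicate block 4, 9, 1, 0 and 0 members were called in the 5 comparisons, as without it. Group mean levels moved by less than 1 SD under the other scalings. Depth limits Fcgr4 most, with 2 to 70 reads per library.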
